A study of Mus musculus with 6 samples.

Results

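The genes described here encode the subunits of the receptors for glutamate, for GABA and, of the nicotinic type, for acetylcholine. They were chosen by symbol alone: names that begin with Gria, Grik, Grin, Grid or Grm (glutamate), Gabr or Gabbr (GABA) and Chrn (nicotinic), followed by a subunit letter or number. The rule uses no measured value, though it was set with earlier results of these data known. The rule matched 54 of 16613 genes in the deposited table, and 52 of these encode receptor subunits. The other 2 were Grid2ip, which encodes a receptor-interacting protein, and Grin1os, an antisense RNA of Grin1. By family, the subunit genes were 15 GABA-A, 9 neuronal nicotinic, 7 metabotropic glutamate, 5 kainate, 5 NMDA, 4 AMPA, 3 muscle-type nicotinic, 2 delta and 2 GABA-B genes. Further genes of these families were not analysed here.

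RNA came from dorsal root ganglia, which hold the cell bodies of sensory neurons with their glia, of mice aged 6 months. The control group had the genotype Kif2a fl/fl, with loxP sites flanking part of Kif2a, a kinesin gene. The knockout group had the same floxed alleles and Avil cre, a Cre recombinase driven from Avil, a gene of sensory neurons, so glia and other cells of the ganglion were not its target. Each group had 3 libraries. Whether these came from separate animals is not stated, and the p-values reflect only how far these samples spread, part of which may be technical.

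Library totals ran from 16090726 to 19221415 counts. Levels are CPM, the count relative to the library total, with libraries scaled by the trimmed mean method of edgeR (TMM), and values of single libraries are given in the order of replicates 1 to 3. A level of 3 counts equals 0.156 to 0.186 CPM in these libraries. Kif2a was at 97.4 ± 7.17 CPM in the control and 88.3 ± 2.45 CPM in the knockout group (SD, n = 3), which did not pass (edgeR quasi-likelihood adjusted p = 0.957). Each knockout library (90.6, 85.7 and 88.5 CPM) lay below each control library (106, 93.9 and 92.7 CPM). These whole-ganglion counts cover the whole transcript. Avil was lower in each knockout library, with a mean at 44.7% of the control mean, and effects of Kif2a loss, of the Cre and of lower Avil cannot be told apart. Control replicate 2 stood apart: 12 skeletal muscle genes summed to 1725 CPM in it, against 9.41 to 77.2 CPM in the other 5 libraries. Pan-neuronal markers summed to 11403 to 12000 CPM in the control and 11573 to 13110 CPM in the knockout libraries. The 11 markers of spinal cord neurons and central glia in the table summed to 102 CPM in control replicate 2 and 31.8 to 58.4 CPM in the others, with the myelin gene Mobp at 36.1 CPM in that library and 3.02 to 12.3 CPM elsewhere. Among them Gad1, Gad2, Slc32a1 and Slc6a5, genes of inhibitory spinal neurons, were at 0 to 2.51 CPM in all 6 libraries. Knockout replicate 2 was the highest library for Gad1, Gad2 and Slc32a1, at 2.51, 1.29 and 1.11 CPM (43, 22 and 19 counts). Gad2, removed by the low-count filter, was higher in each knockout library than in any control library.

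Glutamate is the transmitter that sensory neurons release in the spinal cord, where AMPA and NMDA receptors on the receiving neurons carry the fast signal. Sensory neurons make receptors of their own too. Kainate and NMDA receptors on their central terminals adjust glutamate release, GABA-A receptors depolarise these terminals in presynaptic inhibition, and GABA-B and most metabotropic glutamate receptors there reduce release through G proteins. Nicotinic receptors are acetylcholine-gated cation channels built from combinations of alpha and beta subunits, and several combinations occur in sensory neurons.

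Among the receptor families, Grik1, Chrna6 and Chrnb3 had the largest differences toward lower levels in the knockout, while most subunit genes differed little. The log2 fold change, knockout minus control, was under 0.5 in size for 38 of 45 subunit genes tested. The median over these 45 was 0.03, against 0.01 over all 15043 genes tested, with 20 lower and 25 higher. In the edgeR fit with group as the only term, 0 subunit genes passed an adjusted p of 0.05, as did 0 genes in all (0%). At an unadjusted p under 0.05 there were 4 of 45, against 825 genes in all (5.48%): Grik1, Chrna6, Chrnb3 and Grik4. DESeq2 without a block called Grik1 and Chrnb3, with 65 genes in all (0.432%). The authors' deposited table marks the same 2 genes among 106 of 16613 (0.638%), by a false discovery rate and a 1.5-fold change.

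Same-numbered libraries of the groups deviated together from their group means (Pearson correlations of 0.529, 0.303 and 0.174). Control replicate 2 and knockout replicate 3 reached 0.14, and no label explains the numbers. A model that takes this number as a block compares the groups within these pairs. It called 542 genes (3.6%), of which 355 were lower (2.36%) and 187 higher (1.24%). Of the 45 subunit genes, 3 were lower (Grik1, Chrnb3 and Gabbr2) and 2 were higher (Chrnb4 and Grm4). From here on, "fell" and "rose" are used only of genes that passed an adjusted p of 0.05 in this blocked edgeR fit. No gene passed in edgeR without the block, so the edgeR calls rest on the pairing, whereas Grik1 and Chrnb3 passed in DESeq2 without it (adjusted p = 0.0205 and 0.0438). The control and knockout libraries did not overlap for 5 of 45 subunit genes (Grik1, Grik2, Gria3, Chrna6 and Chrna1), which is close to the 11.1% of all tested genes for which this holds.

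**Figure D1:**
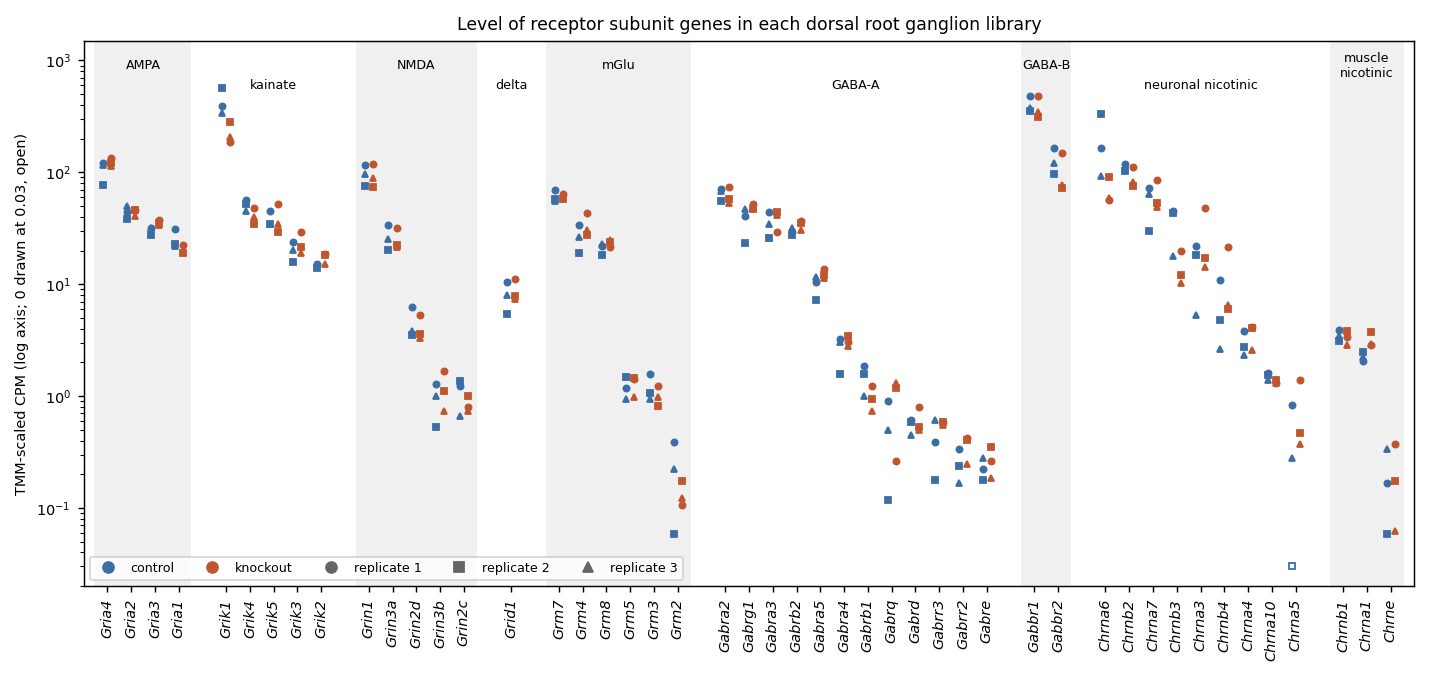
Level of 47 of the 52 subunit genes in each of the 6 libraries, as TMM-scaled CPM on a log axis, grouped by receptor family and ordered by mean level; marker shape gives the replicate number and an open marker a count of 0. Grik1, Gabbr1 and Chrna6 reach the highest levels, and Grik1 and Chrna6 have control and knockout points that do not overlap.

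**Figure D2:**
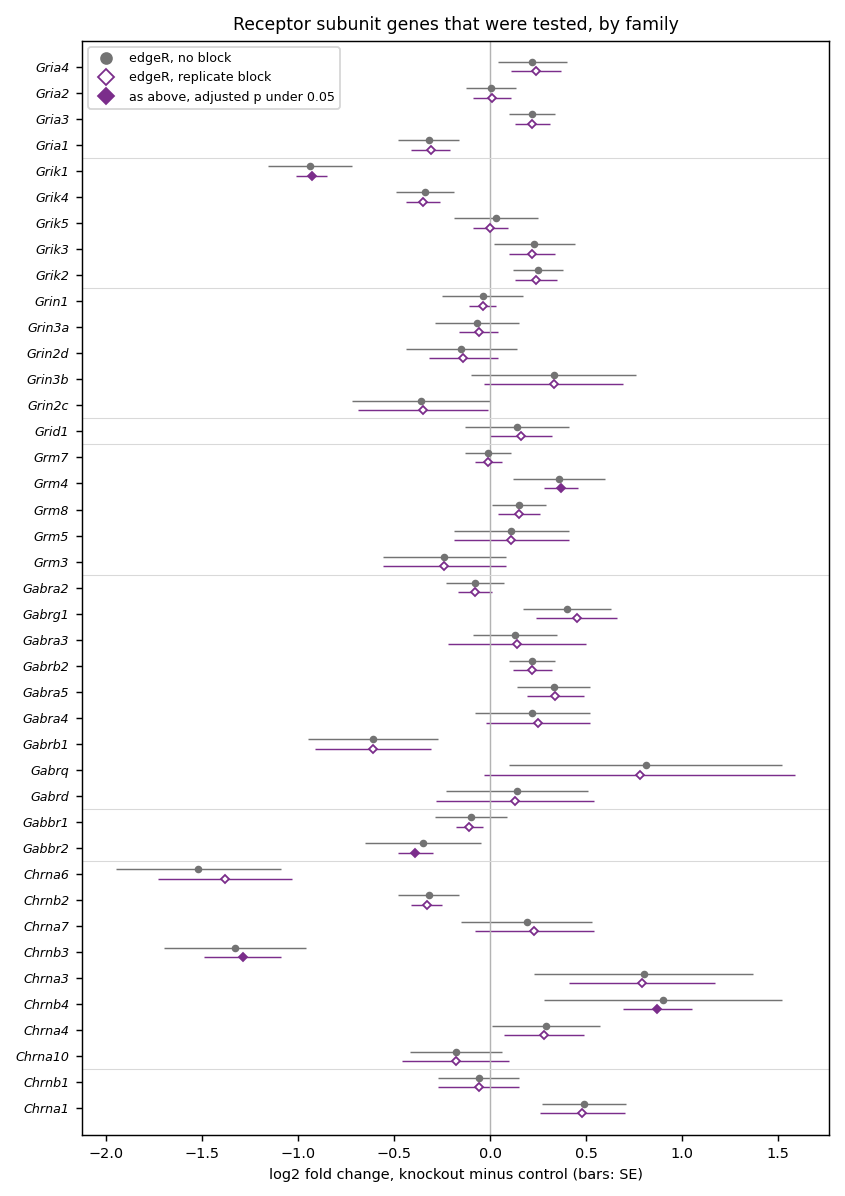
Log2 fold change, knockout minus control, of 41 of the 45 tested subunit genes in the fits without and with the replicate block; bars are SE and filled diamonds mark an adjusted p under 0.05. Most genes lie within 0.5 of 0, with Chrna6, Chrnb3 and Grik1 farthest below it and Chrnb4, Gabrq and Chrna3 farthest above it.

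Kainate receptors are glutamate-gated cation channels. Grik1 encodes GluK1, a pore subunit long known from small-diameter sensory neurons, and it lies on mouse chromosome 16 from 87895900 to 88290265 on the minus strand (mm10). Grik1 was at 388, 567 and 341 CPM in the control and 187, 279 and 208 CPM in the knockout libraries. Every knockout library lay below every control library, and replicate 2 was the highest of its group in both. Grik1 fell by 0.93 on the log2 scale (SE 0.08, adjusted p = 0.000142). The knockout level was 48.3%, 49.2% and 61% of the control level in pairs 1, 2 and 3, and Grik1 passed in the blocked fit with each pair left out in turn. Without the block its log2 fold change was -0.94 (SE 0.22, edgeR adjusted p = 0.614), and it was -0.69 without control replicate 2, the lowest size of the 6 omissions.

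The other kainate genes had lower levels. Grik4 encodes a high-affinity subunit that forms channels only with a partner such as GluK1. It was at 57, 52.3 and 45.5 CPM in the control and 47.6, 34.7 and 40 CPM in the knockout libraries, lower in 3 of 3 pairs, with 1 knockout library above the lowest control. Its blocked log2 fold change of -0.35 (SE 0.09) missed the threshold (edgeR adjusted p = 0.0586), and passed without pair 3 (0.0194). Grik5, the other high-affinity subunit gene, was at 37.8 ± 6.04 and 38.5 ± 11.7 CPM (SD, n = 3). Grik2 and Grik3, which encode pore subunits, were at 14.6 ± 0.48 and 20 ± 3.84 CPM in the control group and at 17.3 ± 1.91 and 23.3 ± 5.48 CPM in the knockout group. Grik2 was higher in each knockout library than in any control library and did not pass (blocked edgeR adjusted p = 0.275).

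Kainate genes summed to 528, 683 and 456 CPM in the control and 335, 383 and 317 CPM in the knockout libraries. Per kilobase of exon, Grik1 made up 81.5 ± 4.37% of the family in the control and 70.9 ± 8.23% in the knockout libraries (SD, n = 3). These sums and shares follow Grik1, and no test was made of them.

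Markers of non-peptidergic nociceptors, a class of small-diameter pain-sensing neurons, were lower together with Grik1. All 10 were lower in the knockout group and 7 fell, among them Mrgprd. Of all 15043 genes tested, 7170 were lower and 2.36% fell. The 10 markers summed to 2022 to 2882 CPM in the control and 1208 to 1590 CPM in the knockout libraries. Control replicate 2 had the highest sum of the control libraries, as it had the highest Grik1 and Chrna6. Mrgprd and Chrnb3, however, were highest in control replicate 1, at 210 and 45.1 CPM. Control replicate 2 was also the highest control for other sums: peptidergic markers (3140 CPM), low-threshold C-fibre markers (851 CPM) and satellite glia markers (8135 CPM). It was the lowest control for markers of myelinated sensory neurons (10363 CPM). Peptidergic nociceptor markers summed to 2686 to 3140 CPM in the control and 3070 to 3499 CPM in the knockout libraries, and markers of myelinated sensory neurons to 10363 to 14510 and 13668 to 18657 CPM. Of the peptidergic markers 1 of 8 rose and 0 fell, and of the myelinated markers 4 of 10 rose and 0 fell. Of the markers of satellite glia 1 of 10 rose, of macrophages 2 of 8 and of Schwann cells 0 of 8, and 0 fell. Satellite glia markers summed to 6669 to 8135 CPM in the control and 7352 to 9317 CPM in the knockout libraries. Among all genes tested 1.24% rose. Genes listed as markers of low-threshold C-fibre mechanoreceptors were lower in 5 of 5, with sums of 622 to 851 CPM in the control and 525 to 621 CPM in the knockout libraries. Only 1 gene of this list, the mechanically gated channel gene Piezo2, fell, by 0.38 (SE 0.06, edgeR adjusted p = 0.00843). The others did not pass (blocked edgeR adjusted p = 0.121 to 0.605), so the list holds no call apart from Piezo2. The part of these classes in the levels of Grik1, Chrna6 and Chrnb3 was not tested, and in whole ganglia fewer cells of a class cannot be told apart from less RNA per cell.

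**Figure D3:**
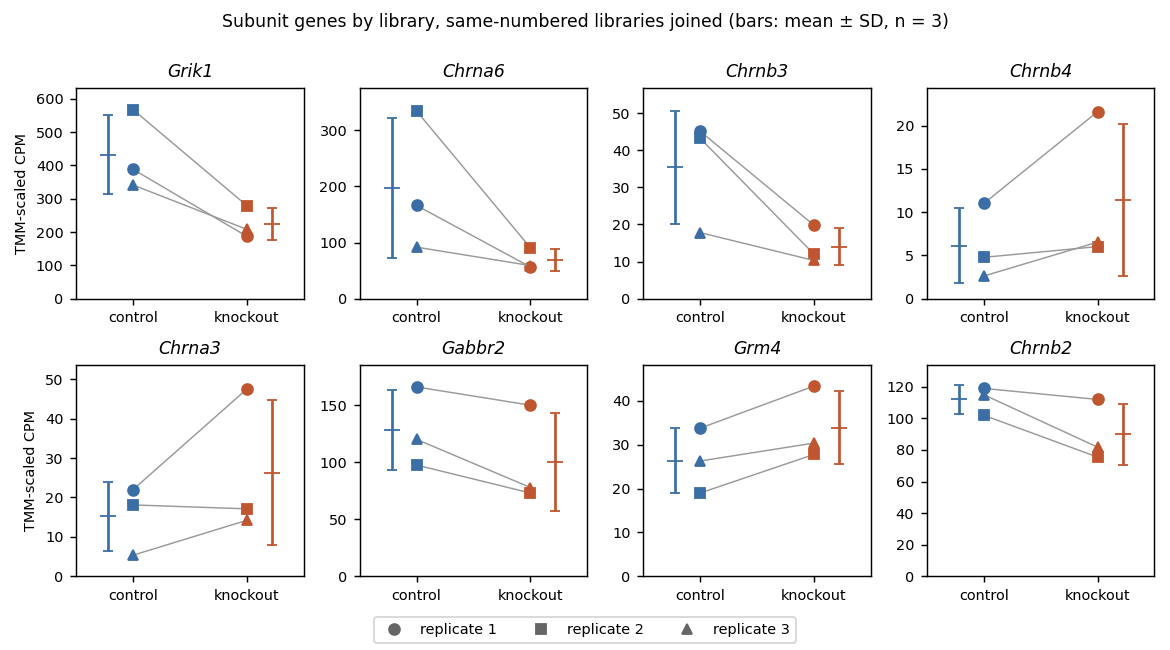
TMM-scaled CPM of 8 subunit genes in each library, with same-numbered control and knockout libraries joined by lines; bars show the mean ± SD of 3 libraries. Lines of Grik1, Chrna6, Chrnb3, Gabbr2 and Chrnb2 slope down in all 3 pairs, those of Chrnb4 and Grm4 slope up, and those of Chrna3 are mixed.

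Nicotinic receptor genes gave the widest range of differences. Chrna6 and Chrnb3 encode the alpha 6 and beta 3 subunits, which occur in the same receptors in the brain, beta 3 as an accessory subunit. The genes are neighbours on chromosome 8, Chrnb3 from 27368711 to 27399730 on the plus strand and Chrna6 from 27403212 to 27413944 on the minus strand. Their ends face each other across 3481 bases. Chrna6 was at 166, 334 and 91.8 CPM in the control and 56.5, 90.6 and 59 CPM in the knockout libraries. The groups did not overlap, though control replicate 3 lay only just above knockout replicate 2. The control libraries spread far more than the knockout libraries, with means of 197 ± 124 and 68.7 ± 19 CPM (SD, n = 3). The log2 fold change of Chrna6 was -1.52 (SE 0.43, edgeR adjusted p = 0.712) and -1.38 with the block (SE 0.35, adjusted p = 0.241), so it did not pass in either. Without control replicate 2 it was -0.90. With the block it passed without pair 2 or pair 3 (edgeR adjusted p = 1.66e-05 and 2.19e-06), but not without pair 1 (0.605).

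Chrnb3 was at 45.1, 43.2 and 17.8 CPM in the control and 19.8, 12 and 10.3 CPM in the knockout libraries. The groups overlapped, because control replicate 3 lay below knockout replicate 1. Within pairs the knockout level was 43.8%, 27.9% and 57.7% of the control level. Chrnb3 fell by 1.29 (SE 0.20, edgeR adjusted p = 0.0324), and the call was lost without pair 1 (adjusted p = 0.108). Without the block the log2 fold change was -1.33 (SE 0.37, edgeR adjusted p = 0.712), and -1.15 without control replicate 2.

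Chrna5, Chrna3 and Chrnb4 form a cluster on chromosome 9 and encode the subunits best known from autonomic ganglia. Chrna3 and Chrnb4 lie on the minus strand with 1591 bases between them, and Chrna5 lies on the plus strand 2331 bases beyond Chrna3. The RefSeq start regions of Chrna3 and Chrnb4, each 250 bases before to 50 bases after a start site, are shown because these neighbours had the highest log2 fold changes of the nicotinic genes that passed the low-count filter. The Chrnb4 start site of RefSeq lies inside the longer GENCODE gene. Both are written 5′ to 3′ on the gene's strand (GRCm38.p6), with matches of a GC box (GGGCGG on either strand) in capitals.
Chrna3 (chr9:55026513-55026812, minus strand): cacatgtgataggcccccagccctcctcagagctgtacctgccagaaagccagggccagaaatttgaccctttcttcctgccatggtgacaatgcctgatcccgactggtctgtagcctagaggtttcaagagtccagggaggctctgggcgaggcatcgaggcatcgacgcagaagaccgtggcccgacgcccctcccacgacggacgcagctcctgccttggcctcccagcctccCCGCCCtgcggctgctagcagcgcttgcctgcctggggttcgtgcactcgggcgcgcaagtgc
Chrnb4 (chr9:55048495-55048794, minus strand): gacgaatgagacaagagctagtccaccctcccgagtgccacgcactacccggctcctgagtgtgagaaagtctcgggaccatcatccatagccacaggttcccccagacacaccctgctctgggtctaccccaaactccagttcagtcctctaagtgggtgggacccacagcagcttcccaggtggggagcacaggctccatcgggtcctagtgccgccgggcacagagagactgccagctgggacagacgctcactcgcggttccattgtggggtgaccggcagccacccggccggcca
The Chrna3 window held 1 GC box, at base 238, and the Chrnb4 window held 0; 35.9% of 32544 promoter windows of this length hold at least 1. An E-box (CANNTG) occurred 3 times and 2 times, and 72.3% of windows hold at least 1. The GC contents were 64.3% and 63%, against a median of 53% over all windows.

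Chrnb4 was at 11, 4.78 and 2.62 CPM in the control and 21.6, 6.02 and 6.54 CPM in the knockout libraries. Replicate 1 was the highest library of each group, and the groups overlapped. Within pairs the knockout level was 196%, 126% and 250% of the control level, and Chrnb4 rose by 0.87 (SE 0.18, edgeR adjusted p = 0.0281). The call was lost without pair 1 (adjusted p = 0.234). Without the block the log2 fold change was 0.90 (SE 0.62, edgeR adjusted p = 0.957), and with a library left out it was between 0.03 (knockout replicate 1 omitted) and 1.61 (control replicate 1 omitted).

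Chrna3 was likewise highest in replicate 1 of each group, with 22, 18.1 and 5.35 CPM in the control and 47.5, 17.1 and 14.2 CPM in the knockout libraries. It was higher in pairs 1 and 3 and at 94.5% of control in pair 2, and its blocked log2 fold change of 0.79 (SE 0.38) missed the threshold (edgeR adjusted p = 0.409). It passed without pair 2 (edgeR adjusted p = 1.39e-16), and not without pair 1 (0.691) or pair 3 (0.74). Few libraries remain in such a fit, so a p-value this small rests largely on variance estimates shared across genes. Chrna5 had 15, 0 and 5 counts in the control and 26, 8 and 6 counts in the knockout libraries, and the low-count filter removed it. The 0 in control replicate 2 allows a level of up to 0.175 CPM. In this cluster, replicate 1 thus had the highest counts of each group for all 3 genes. Of 13 genes of sympathetic neurons, a list added after the data were seen, 8 were in the table. They summed to 34.5 to 36.4 CPM in the control and 35.3 to 37.4 CPM in the knockout libraries, and their noradrenaline transporter gene Slc6a2 was at 0 to 0.802 CPM. Of the 6 tested, the groups did not overlap for 2, against 11.1% of all genes tested. An unadjusted edgeR p under 0.05 was seen for 1, against 5.48%. Such a sum follows its highest members, and the part of sympathetic neurons in the replicate 1 levels was not tested.

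Chrnb2 encodes a beta subunit that assembles with several alpha subunits, alpha 6 among them. It was at 119, 102 and 115 CPM in the control and 112, 75.5 and 81.8 CPM in the knockout libraries, lower in 3 of 3 pairs with overlapping groups. The blocked log2 fold change of -0.33 (SE 0.08) missed the threshold (edgeR adjusted p = 0.0547). It passed without pair 1 (adjusted p = 0.0364). Exons of Chrnb2 overlap those of Adar on the other strand, and reads of the 2 genes may not have been told apart, since strand information is not stated. The same holds for Grin1, Grin3b, Chrna10 and other subunit genes with a neighbour on the opposite strand. Chrna7, whose alpha 7 subunit forms receptors by itself, was at 55.2 ± 22.5 and 62.8 ± 20.4 CPM (SD, n = 3), with control replicate 2 the lowest library at 29.6 CPM. Chrna4 and Chrna10 were under 5 CPM in every library.

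Per kilobase of exon, Chrna6 made up 53.4 ± 18.8% of the neuronal nicotinic family in the control and 32 ± 10.7% in the knockout libraries (SD, n = 3). Chrna7 made up 25.1 ± 14.4% and 39.1 ± 4.77%. The ranges of the groups overlapped for both. The summed level of the family, in CPM, was 443, 535 and 300 in control replicates 1 to 3 and 350, 261 and 225 in knockout replicates 1 to 3, so the groups overlapped.

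The muscle-type subunit genes Chrna1 and Chrnb1, which serve the neuromuscular junction, were between 2 and 4 CPM. Chrna1 was at 2.07, 2.48 and 2.23 CPM in the control and 2.86, 3.74 and 2.9 CPM in the knockout libraries, from 37 to 64 counts. Each knockout library lay above each control library, and its log2 fold change of 0.49 (SE 0.22) missed the threshold (edgeR adjusted p = 0.914). Chrnb1 was at 3.86, 3.13 and 3.46 CPM in the control and 3.39, 3.8 and 2.84 CPM in the knockout libraries. In control replicate 2, the library with the high muscle gene sum, Chrna1 was the highest and Chrnb1 the lowest of the 3 controls.

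Among the AMPA receptor genes, Gria4 had the highest level, with 122, 77.4 and 116 CPM in the control and 133, 121 and 114 CPM in the knockout libraries. Control replicate 2 alone lay apart, and the log2 fold change of 0.22 (SE 0.18) became 0.05 without it. Gria2, whose edited subunit keeps AMPA channels from passing calcium, was at 44.2, 38.6 and 49.5 CPM in the control and 45.6, 46.2 and 40.8 CPM in the knockout libraries. Gria1 was at 31, 23.1 and 22.1 CPM in the control and 22.4, 19 and 19.8 CPM in the knockout libraries, lower in 3 of 3 pairs. Its log2 fold change was -0.32 (SE 0.16, edgeR adjusted p = 0.919), and -0.16 without control replicate 1, the highest library. Gria3 was higher in every knockout than in every control library, at 35.5 ± 1.92 against 30.4 ± 2.73 CPM, and did not pass (adjusted p = 0.93). Per kilobase of exon, Gria1 made up 11.6 to 16% of the AMPA family in the control and 9.82 to 10.8% in the knockout libraries.

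NMDA receptors need the GluN1 subunit encoded by Grin1. Grin1 was at 116, 74.9 and 97.5 CPM in the control and 118, 73.4 and 89 CPM in the knockout libraries. Same-numbered libraries were close to each other, and replicate numbers differed more than the groups did. Grin1 overlaps its antisense RNA Grin1os, which was at no more than 0.826 CPM in any library. Grin3a, which encodes a subunit that lowers calcium entry, was at 33.7, 20.3 and 25.3 CPM in the control and 31.6, 22.6 and 21.6 CPM in the knockout libraries. Grin2d, Grin3b and Grin2c were under 7 CPM in every library. Grin2c, the gene of smallest p in its family, was at 1.23, 1.36 and 0.669 CPM in the control and 0.795, 0.994 and 0.74 CPM in the knockout libraries. It had a log2 fold change of -0.36 (SE 0.36, edgeR adjusted p = 0.981).

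The delta receptors bind synaptic organiser proteins more than they act as glutamate-gated channels. Grid1 was at 10.4, 5.37 and 7.97 CPM in the control and 11.1, 7.77 and 7.34 CPM in the knockout libraries. Grid2ip was at 5.09 ± 1.91 and 4.99 ± 1.48 CPM (SD, n = 3). Neither passed in either edgeR fit.

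The metabotropic glutamate receptor RNA of these ganglia was mostly that of group III genes, whose receptors are coupled to inhibition of adenylyl cyclase and found on axon terminals. Grm7 was at 70.2, 58 and 55.5 CPM in the control and 64.5, 57.7 and 59.8 CPM in the knockout libraries, and the log2 fold change was -0.01 (SE 0.12, edgeR adjusted p = 0.996). Grm4 was at 33.8, 19 and 26.3 CPM in the control and 43.4, 27.8 and 30.4 CPM in the knockout libraries. The groups overlapped, and the knockout library was above its control in each pair, at 128%, 146% and 116%. Grm4 rose by 0.37 (SE 0.09, edgeR adjusted p = 0.0499), and the call was lost without pair 1 or pair 2 (adjusted p = 0.265 and 0.0953). Without the block its log2 fold change was 0.36 (SE 0.24, edgeR adjusted p = 0.957), and 0.14 to 0.57 with a library left out, lowest without knockout replicate 1. Grm4 occupies bases 27422387 to 27521403 of chromosome 17, minus strand. Grm8, a further group III gene, was at 21.1 ± 2.61 and 23.4 ± 1.75 CPM (SD, n = 3). Grm3 and Grm5 were under 2 CPM in every library, and the low-count filter removed Grm2.

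GABA-A receptors are chloride channels, most often of alpha, beta and gamma subunits. Gabrb2, which encodes a beta subunit, was at 29, 27.6 and 31.8 CPM in the control and 37, 34.9 and 30.7 CPM in the knockout libraries. Its log2 fold change was 0.22 (SE 0.12, edgeR adjusted p = 0.933). Knockout replicate 3 lay within the control range and the other 2 knockout libraries above it. Gabra2 was at 71, 55.7 and 68.5 CPM in the control and 73.6, 57.6 and 53.7 CPM in the knockout libraries, and its log2 fold change was -0.08 (SE 0.15, edgeR adjusted p = 0.984). Gabrg1 was at 40.4, 23.3 and 47.4 CPM in the control and 51.6, 46.9 and 47.9 CPM in the knockout libraries, with control replicate 2 the lowest. Its log2 fold change was 0.40 (SE 0.23, edgeR adjusted p = 0.933), and 0.16 without control replicate 2. Gabra3 and Gabra5 had control means of 34.8 and 9.8 CPM and knockout means of 38.2 and 12.3 CPM. Gabra4, Gabrb1, Gabrq and Gabrd stayed under 4 CPM in every library, and exons of Gabra4 and Gabrb1 overlap on opposite strands. Of the 12 GABA-A genes tested, 4 were lower and 8 higher. None passed in either edgeR fit, where 0% of all genes tested passed without and 3.6% with the block. With the block 3 of the 12 had an unadjusted edgeR p under 0.05, against 2868 of 15043 genes tested. The summed level of the family was 519 to 554 CPM in the control and 494 to 560 CPM in the knockout libraries.

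The GABA-B receptor works as a dimer of the GABA-binding subunit encoded by Gabbr1 and the G-protein-coupling subunit encoded by Gabbr2. Gabbr1 was at 483, 352 and 379 CPM in the control and 477, 311 and 345 CPM in the knockout libraries. Each knockout library lay below its control, and the log2 fold change was -0.10 (SE 0.19, edgeR adjusted p = 0.984). Gabbr2 was at 166, 97.5 and 120 CPM in the control and 150, 73 and 77.8 CPM in the knockout libraries. The groups overlapped, since knockout replicate 1 lay above control replicates 2 and 3. Within pairs the knockout level was 90.3%, 74.9% and 64.6% of the control level. Gabbr2 fell by 0.39 (SE 0.09, edgeR adjusted p = 0.0441), and the call was lost without pair 3 (adjusted p = 0.0522) or with DESeq2 size factors in the blocked fit (adjusted p = 0.0582). Without the block its log2 fold change was -0.35 (SE 0.30, edgeR adjusted p = 0.977), and with a library left out it was between -0.77 (knockout replicate 1 omitted) and -0.13 (control replicate 1 omitted). Gabbr2 occupies bases 46662305 to 46991873 of chromosome 4, minus strand.

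**Figure D4:**
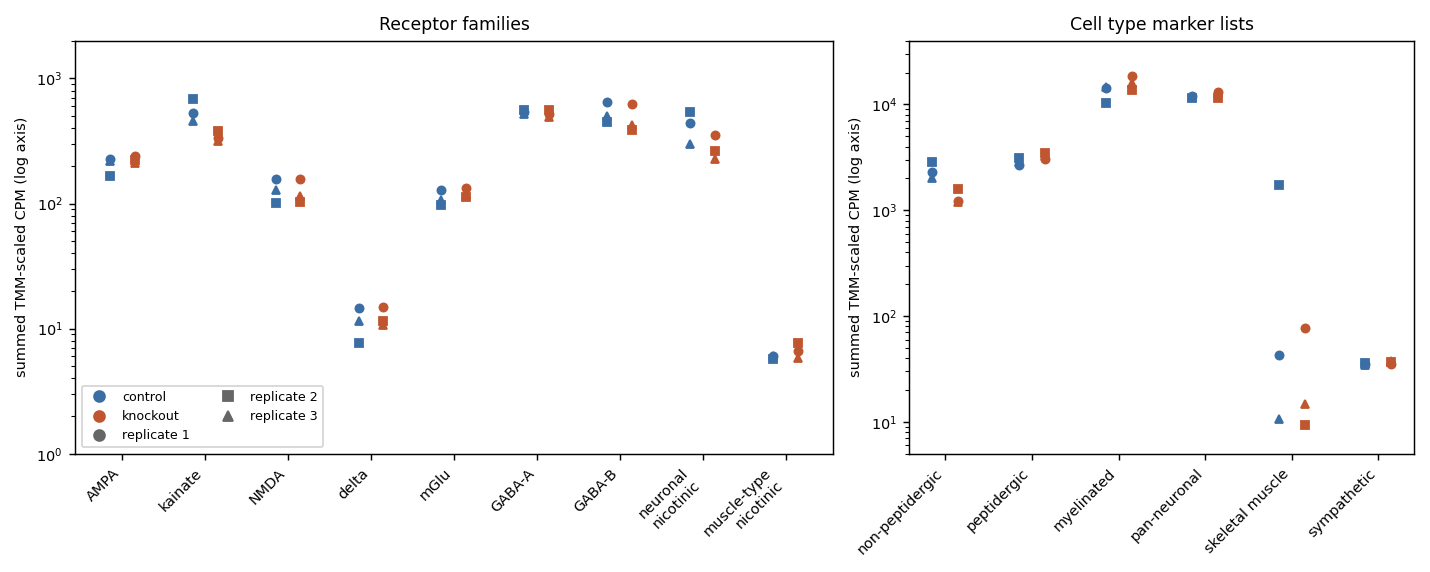
Summed TMM-scaled CPM of each receptor family (left) and of 6 cell type marker lists (right) in each library, on log axes; colour gives the group and shape the replicate number. The kainate sums and the non-peptidergic marker sums of the groups do not overlap, and control replicate 2 stands apart for skeletal muscle genes.

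Levels of different genes were compared per kilobase of merged exons (GENCODE annotation of GRCm38), on which scale a longer annotated gene ranks lower. In the control group the order began with Grik1 at 102 ± 28.2 CPM per kilobase, Chrna6 at 67.9 ± 42.6, Gabbr1 at 61.3 ± 10.5 and Chrna7 at 26.6 ± 10.9 (SD, n = 3). Taking the sum of the SDs of 2 neighbours as their spread, Grik1 and Chrna6, and Chrna6 and Gabbr1, did not differ beyond it. Gabbr1 and Chrna7 differed beyond it. Both genes of such a comparison come from the same libraries and can vary together. This spread therefore does not describe their order within single libraries. Gabbr2 at 22.3 ± 6.06 and Grin1 at 22 ± 4.71 CPM per kilobase, at ranks 7 and 8, did not differ beyond their spread. In the knockout group Gabbr1 was first at 57.2 ± 13.3, followed by Grik1 at 53.2 ± 11.3, Chrna7 at 30.2 ± 9.8 and Chrna6 at 23.6 ± 6.54 CPM per kilobase. Gabbr1 and Grik1, and Chrna7 and Chrna6, did not differ there beyond their spread, whereas Grik1 and Chrna7 did. Chrnb3 went from rank 20 in the control to rank 29 in the knockout group, and the ranks of Grm7, Chrnb2 and Gabra2 were 11, 12 and 13 in both.

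**Figure D5:**
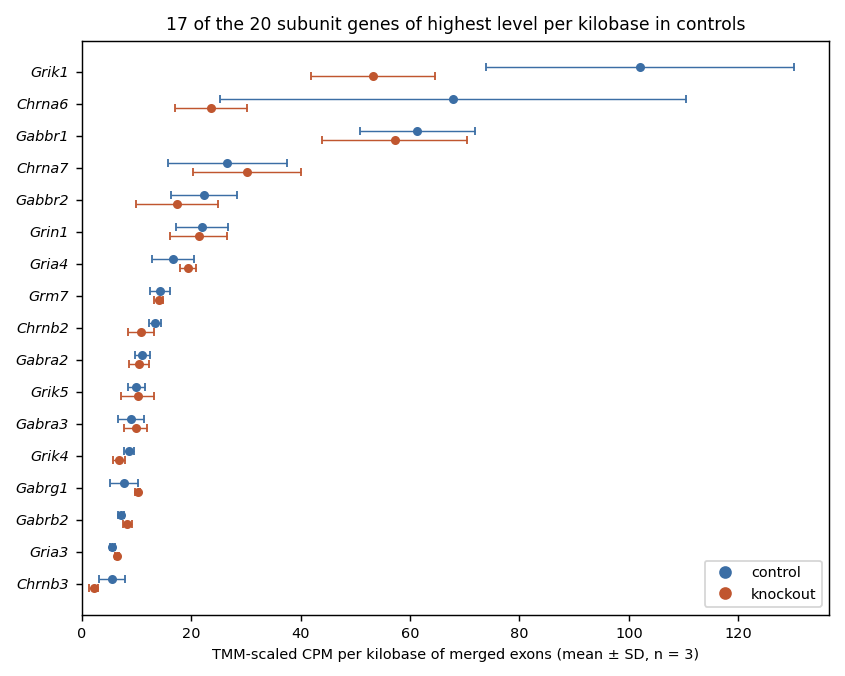
TMM-scaled CPM per kilobase of merged exons for 17 of the 20 subunit genes of highest level in controls, as mean ± SD of 3 libraries per group. The control and knockout bars are apart for Grik1 and overlap for Gabbr1 and Chrna7.

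The 7 subunit genes that the low-count filter removed had at most 26 counts, or 1.38 CPM, in any library. Among them were Gabre, Gabrr2, Gabrr3, Grm2, Chrne and Chrna5. None of them passed in edgeR without the block when the filter was left off, but that fit called 0 genes in all. The blocked fit was not made without the filter, so whether these genes differed was not decided.

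Genes of the same signalling systems were counted from 8 lists of 80 genes. They cover products that assemble, anchor or serve these receptors and, in 1 list, other ligand-gated and muscarinic receptors. Of the 80, 73 were in the table and 69 were tested. The tested genes had a median log2 fold change of 0.03, and 4 fell and 0 rose, where 2.36% and 1.24% of all genes tested did so. Kctd16 encodes an auxiliary subunit of the GABA-B receptor. It was at 19.1, 17.3 and 15.7 CPM in the control and 13.2, 11.6 and 7.65 CPM in the knockout libraries, with no overlap, and fell by 0.70 (SE 0.13, edgeR adjusted p = 0.0132). Kctd8 and Kctd12, of the same auxiliary family, were at 77 and 17.1 CPM in the control and 72.1 and 19.9 CPM in the knockout group and did not pass.

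Abat encodes GABA transaminase, which breaks GABA down, and was at 99.6, 116 and 95.4 CPM in the control and 74.7, 88.7 and 75.8 CPM in the knockout libraries. Abat fell by 0.38 (SE 0.06, edgeR adjusted p = 0.00921). The glutamate receptor scaffold genes Homer2 and Grip1 fell by 0.37 (SE 0.07) and 0.32 (SE 0.07), with edgeR adjusted p-values of 0.0154 and 0.0391. Homer2 links group I metabotropic receptors to intracellular calcium stores, and Grip1 anchors AMPA receptors. For 6 of the 69 genes the libraries of the groups were fully apart, namely the 4 that fell, Dlgap1 and Glul, against 11.1% of all genes tested. None of the 69 passed in edgeR without the block, and 4 had an unadjusted p under 0.05, against 5.48% of all genes tested. Without pair 1 the calls of Abat, Homer2 and Grip1 were lost (adjusted p = 0.108, 0.155 and 0.149), and Grip1 was lost without pair 3 too (adjusted p = 0.0661), whereas Kctd16 passed with each pair left out.

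Of the 13 tested auxiliary subunits of glutamate receptors, among them Neto2, a kainate receptor partner at 28.1 CPM in the control and 28.6 CPM in the knockout group, 0 passed. The chaperone Ric3 and the modulator Lynx1 of nicotinic receptors were at 98.7 and 403 CPM in the control and 105 and 461 CPM in the knockout group, and 0 of 7 genes of nicotinic receptor assembly passed. Among the glutamate handling genes, the vesicular transporters Slc17a6 and Slc17a7 were at 348 and 174 CPM in the control and 339 and 209 CPM in the knockout group. None of these 8 genes passed, while with the block 3.6% of all genes tested did.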

How the data were processed

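Messenger RNA of mouse dorsal root ganglia was measured in 3 control and 3 knockout libraries, grouped by their labels. The authors deposited 1 table of genes by symbol. Per the file headers it holds raw counts per gene and library, a normalized signal (found to be the count over a size factor of its library), transformed log2 values that were not used, and the authors' log2 fold changes, p-values and false discovery rates. The submitters' processing notes name cutadapt, STAR, DESeq2 and mm10. The counter, the tool versions and the strandedness were not given in the sources used here. All columns used belong to these 6 libraries.

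The counts were fitted in R 4.3.3 with edgeR 4.0.16 (filterByExpr, TMM scaling, robust quasi-likelihood test, group as the only term) over all genes, with Benjamini-Hochberg adjustment and a threshold of 0.05. SEs were taken from the log2 fold change and its F statistic. The receptor genes were read off this fit, with no test over the list. Alternatives were the replicate number as a block, DESeq2 1.42.0, its size factors in edgeR, limma-voom (limma 3.58.1), no low-count filter and leaving out each library or pair. The scripts' tests were tested on simulated data. Deviations from the group means, on log2 CPM with a prior count of 2, correlated over 15043 genes at 0.529, 0.303 and 0.174 (Pearson) for same-numbered libraries, all above 0.1, and on that basis the numbers were treated as pairs. Control replicate 2 and knockout replicate 3 also reached 0.14, and no label explains the numbers.

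The receptor genes, the partner and marker lists and the tests were chosen with earlier results of these data known. Genes given with every library's value were those passing in either edgeR fit, the 2 of highest mean CPM in each family and the 1 of smallest p in each family. Partner genes were named where they passed in either fit. Some genes are not reported here, also not those the rule would name, though they remain in the fits, counts and family sums. The other genes given by value were chosen after their values were seen. Exon lengths and coordinates are from the GENCODE annotation of GRCm38 and promoter windows from RefSeq, where 39 of the 54 genes had an entry. The 3-count floor covers counting error only.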

Additional observations from a re-analysis of the deposited data

How the results depend on the processing

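Without the block, edgeR called 0 genes, and so did DESeq2 size factors in edgeR, limma-voom, no low-count filter and each omission of 1 library, where 416 to 1323 genes had an unadjusted p under 0.05. DESeq2 called 65 genes and 2 subunit genes. The replicate block called 542 genes and 5 subunit genes, and 538 and 4 with DESeq2 size factors, an alternative chosen after seeing the data. DESeq2 with the block called 423 and 5, with Chrna6 in place of Grm4. With the block and a pair left out, the counts were 208 and 3 without pair 1, 819 and 6 without pair 2 and 897 and 6 without pair 3. Grik1 was among the calls in each of these blocked fits, and Chrna6 passed without pair 2 and without pair 3. The cause of these changes was not tested. Fewer samples also enter each fit with a pair left out, and its p-values then rest largely on variance estimates shared across genes.

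Of 320 combinations of a named gene and an alternative, 267 kept direction and side of the threshold, 30 gained a call and 23 changed sign. The reference, edgeR without the block, called 0 genes, so no call could be lost. A missing adjusted p was counted as not passing. The sign changes were in 7 of 20 genes, none of which passed in either edgeR fit with all libraries. With 1 library left out, log2 fold changes ran from -0.16 to 0.04 for Chrnb1, -0.31 to 0.03 for Gabbr1, -0.08 to 0.09 for Gria2, -0.07 to 0.38 for Grid1, -0.25 to 0.11 for Grin1, -0.26 to 0.13 for Grin3a and -0.08 to 0.08 for Grm7. With the block and pair 1 left out, Gria2 was at -0.02 and Grm7 at 0.04. With pair 2 left out, Gria2 was at -0.11 and Grid1 at -0.004. With pair 3 left out, Chrnb1 and Grin3a were at 0.04 and 0.02. The low-count filter left out 7 subunit genes, with at most 26 counts in any library. Without it 0 of 52 subunit genes passed, as did 0 genes in all, and 4 subunit genes had an unadjusted p under 0.05.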
